A study of Mus musculus with 8 samples.

Results

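The Alg genes described here are 9 of the genes that build the sugar chain for N-glycosylation, and they were taken by symbol (Alg1, Alg2, Alg3, Alg5, Alg6, Alg8, Alg9, Alg11 and Alg12) from 42391 gene entries counted in mouse myoblasts with and without a Septin9 siRNA. They were selected on the lower counts of Alg2 and Alg9 after the siRNA in both cell types, so the change of all 9 genes after the siRNA is given as a description without p-values, and where a count places them past a threshold it follows from that choice. All 9 symbols were present and all 9 passed the filter on low counts in each cell type. Levels in the control samples and differences between the independent experiments were not used in the choice, and these were tested.

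N-glycosylation starts in the membrane of the endoplasmic reticulum, where a branched chain of N-acetylglucosamine, mannose and glucose is assembled on the lipid dolichol. Alg1, Alg2 and Alg11 add the first mannoses on the cytosolic face, the chain is then turned into the lumen, Alg3, Alg9 and Alg12 add the remaining mannoses there, and Alg6 and Alg8 add glucose that Alg5 has first placed on dolichol phosphate. The oligosaccharyltransferase complex moves the finished chain to asparagines of new proteins, and inherited defects of these steps in humans are known as congenital disorders of glycosylation, in which muscle weakness is frequent.

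The study sequenced polyA RNA of 8 samples, in 4 groups of 2. C2C12 cells, a mouse myoblast line, received a non-targeting siRNA (control) or the Septin9 siRNA at 50 nM, with a concentration of 100 nM during the initial 5 h. They were taken 60 h after transfection, when they had been in differentiation medium for 12 h. Primary myoblasts, cultured from hindlimb muscle of mice 5 weeks old, received the same siRNAs at a dose not given in the sources used here, were kept in proliferation medium and were lysed 48 h after transfection. The samples come from 2 independent experiments, a single Septin9 siRNA was used, and C2C12 cells are 1 line, so p-values measure the spread between these few cultures. Between 20898611 and 27223414 reads were counted per sample. Septin9 itself, in counts scaled to library size (CPM), stood at 430 and 441 in control C2C12 cells and at 151 and 189 after its siRNA, and at 365 and 459 in control primary myoblasts against 199 and 157. In edgeR's quasi-likelihood test the log2 fold change of Septin9 with its standard error was -1.36 ± 0.08 in C2C12 cells (adjusted p = 5.11e-09), and primary myoblasts gave -1.21 ± 0.15 (adjusted p = 0.000134).

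The samples were checked against marker genes. The 5 myoblast markers (Myod1, Myf5, Des, Cdh15 and Pax7) summed to 756 CPM or more in every sample, while the 5 endothelial markers summed to at most 4.72 CPM and the 5 macrophage markers to at most 2.67 CPM. The 5 fibroblast markers summed to 2378 and 2997 CPM in control C2C12 cells, of which Col3a1 gave 2367 and 2979, Pdgfra 9.89 and 15.2 and Dcn 0.525 and 2.76, while Thy1 and Lum were at 0. They summed to 336 and 576 CPM in control primary myoblasts, of which Col3a1 gave 334 and 523. Outside Col3a1 these markers were higher in replicate 2 of the primary myoblasts, where Pdgfra stood at 1.0 and 30.8, Dcn at 0.250 and 13.0, Thy1 at 0.501 and 8.30 and Lum at 0 and 0.469 CPM in the controls. Primary myoblasts are labelled as proliferating, but their differentiation markers were high. The 12 muscle differentiation markers summed to 16449 and 4620 CPM in control primary myoblasts and to 38.1 and 131 CPM in control C2C12 cells, and the embryonic myosin Myh3 led them in primary myoblasts. After Septin9 siRNA 8 of these 12 markers were higher in C2C12 cells and 10 of 12 in primary myoblasts at an adjusted p under 0.05, and 7 of 14 cell division markers were lower in C2C12 cells and 2 of 14 in primary myoblasts. A lower level in such bulk RNA cannot be told apart from fewer cells that express the gene.

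Sequences that match the siRNA seed are shown first, because Alg2, the member with the largest difference, carries one. Capitals mark GACGTGT, the 7 bases complementary to the seed of the siRNA guide strand (heptamer), or its first 6 bases (hexamer) where the last base differs. Each window has 19 bases on GRCm38, and the Septin9 window, in the coding sequence at chr11:117356354-117356372 (+), is the siRNA target. The Alg2 window lies in the 3′ UTR at chr4:47470106-47470124 (-), in exon 2 of 2, 1446 bases past the stop codon of 1726 bases. The Alg9 window lies in the 3′ UTR at chr9:50843359-50843377 (+), 513 bases past the stop codon of 671, and the Alg3 window at chr16:20605527-20605545 (-), 21 bases past the stop codon.
Septin9: ccaacggcattGACGTGTa
Alg2: ttcatatttcaGACGTGTt
Alg9: cccggcagcaaGACGTGgc
Alg3: cttccttctagGACGTGct
Only the strand of the transcript was searched, and the heptamer contains the hexamer. The hexamer leaves out the base of the heptamer that pairs nearest the start of the guide strand. The last 6 bases of the heptamer (ACGTGT) were not searched alone, so genes counted as without the hexamer may carry them. Alg2 was the single member of 9 with the heptamer after its coding sequence, against 2.63% of 20466 genes with such sequence. Alg3 and Alg9 had the hexamer alone, and 8.67% of genes had the hexamer with or without the heptamer. The other 6 members had neither, which says only that these letters are not in that window.

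On the cytosolic face of the membrane, Alg2 was at about 50% of control after the Septin9 siRNA in both cell types. Alg2 adds the mannoses that follow the one added by Alg1. Its gene lies at chr4:47469833-47474367 on the minus strand (RefSeq, GRCm38.p6). In C2C12 cells Alg2 was counted 684 and 904 times in the control samples and 327 and 474 times in the Septin9-deficient samples, which gives 32.7 and 33.7 CPM against 15.7 and 20.3 CPM. In primary myoblasts the counts were 716 and 972 against 402 and 322, or 29.9 and 35.1 CPM against 17.2 and 15.2 CPM. Every Septin9-deficient sample was thus below every control sample of its cell type. The mean was 54.2% of control in C2C12 cells and 49.9% in primary myoblasts. As log2 fold change this was -0.89 (standard error 0.09) and -1.0 (standard error 0.13). Within the replicate pairs, the log2 ratio of Septin9 siRNA to control was -1.05 and -0.73 in C2C12 cells, and for primary myoblasts it was -0.79 and -1.20, so the pair with the larger difference was the first in one cell type and the second in the other. Septin9 itself showed the same order, with pair ratios of -1.50 and -1.22 in the line and of -0.87 and -1.54 in the primary cells. Alg9 showed it too (-0.60 and -0.33, then -0.54 and -0.59). With so few pairs nothing is read from this order.

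Alg1, which adds the first mannose, and Alg11, which completes the cytosolic chain, showed no difference of this size. For Alg1 the control samples stood at 22.8 and 20.0 CPM and the Septin9-deficient samples at 22.1 and 22.9 CPM in C2C12 cells, and at 22.7 and 21.7 against 28.7 and 21.1 CPM in primary myoblasts. The groups overlapped in both cell types, and the log2 fold changes were 0.08 (standard error 0.09) and 0.15 (standard error 0.13). Alg1 overlaps the gene Eef2kmt by 755 bases, so reads of the pair may not be fully separated. For Alg11 the values were 22.9 and 26.5 against 21.4 and 24.9 CPM in C2C12 cells and 20.3 and 21.8 against 22.9 and 21.3 CPM in primary myoblasts, again with overlapping groups. The 4 pair ratios of Alg11 lay between -0.09 and 0.17.

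**Figure D1:**
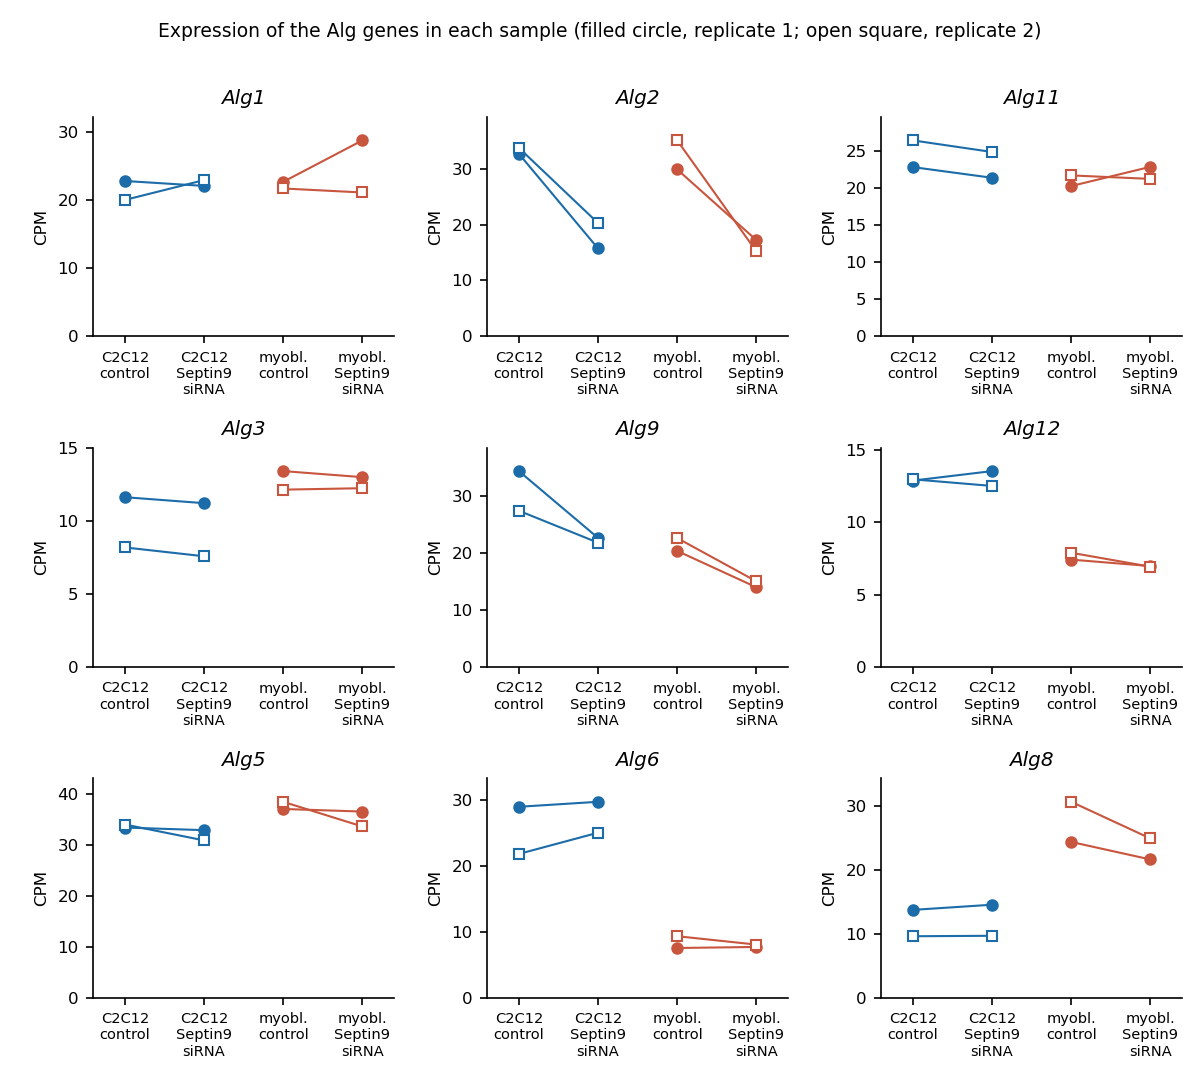
CPM of each Alg gene (y axis, from 0) in the 4 groups (x axis), with a line joining control and Septin9 siRNA of 1 replicate; blue, C2C12 cells, and red, primary myoblasts. The lines of Alg2 and Alg9 go down in every pair, from 32.7 to 15.7 CPM in the first C2C12 pair of Alg2, while Alg6 and Alg8 are set apart by cell type.

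In the lumen, Alg9 was lower after the siRNA in both cell types and its neighbours Alg3 and Alg12 were not lower to that extent. Alg9 adds mannoses before and after the step of Alg12, and its gene lies at chr9:50775225-50843639 on the plus strand. In C2C12 cells Alg9 stood at 34.4 and 27.5 CPM in the control samples (721 and 736 counts) and at 22.7 and 21.8 CPM (472 and 511 counts) in the Septin9-deficient samples. In primary myoblasts it stood at 20.4 and 22.7 CPM (489 and 628 counts) against 14.0 and 15.1 CPM (327 and 319 counts). The groups did not overlap in either cell type, and the mean was 71.9% and 67.5% of control. The log2 fold changes of Alg9 were -0.46 (standard error 0.09) and -0.57 (standard error 0.13), with pair ratios of -0.60 and -0.33 in C2C12 cells, while the pairs of primary myoblasts gave -0.54 and -0.59. Both fold changes are short of the 1.5-fold needed beside an adjusted p under 0.05 for a DEG (differentially expressed gene, by the thresholds of the study), and those of Alg2 lie beyond it. For Alg9 in primary myoblasts 1 sample pair decides this, since its log2 fold change was -0.61, beyond 1.5-fold, without replicate 1 and -0.52 without replicate 2. Alg9 overlaps Gm38476 by 315 bases and LOC115487294 by 140 bases.

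Alg3 adds the first lumenal mannose. In C2C12 cells it stood at 11.6 and 8.17 CPM with the control and 11.2 and 7.57 CPM with the Septin9 siRNA, and at 13.4 and 12.1 against 13.0 and 12.2 CPM in primary myoblasts. The difference between the C2C12 experiments was here larger than that between the siRNAs. Alg12 stood at 12.9 and 13.0 against 13.6 and 12.5 CPM in C2C12 cells, which overlap, and at 7.43 and 7.90 against 6.98 and 6.94 CPM in primary myoblasts, which do not. Its log2 fold change in primary myoblasts was -0.14 (standard error 0.18).

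The means of the 3 glucosylation genes after the siRNA lay between 84.6% (Alg8 in primary myoblasts) and 108% (Alg6 in C2C12 cells) of control. Alg5, which charges dolichol phosphate with glucose, stood at 33.4 and 34.0 CPM in control C2C12 cells, at 32.9 and 30.9 CPM in Septin9-deficient ones, and at 37.1 and 38.5 against 36.6 and 33.6 CPM in primary myoblasts. Its groups did not overlap in either cell type, but the means were 94.6% and 92.9% of control. Alg6, which adds the first glucose, stood at 29.0 and 21.9 against 29.8 and 25.1 CPM in C2C12 cells and at 7.55 and 9.35 against 7.71 and 8.07 CPM in primary myoblasts. A further entry of Alg6 in the count matrix held nearly the same counts (582 beside 608 in the first C2C12 control), so the level of Alg6 is uncertain. Alg8, which adds the next glucose, stood at 13.7 and 9.59 against 14.5 and 9.66 CPM in C2C12 cells and at 24.3 and 30.6 against 21.6 and 24.9 CPM in primary myoblasts, with overlapping groups in both.

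Taken as a group, 1 of 9 members, Alg2, was a downregulated DEG in C2C12 cells, where 0.74% of all 15814 genes tested were, and 1 of 9, again Alg2, in primary myoblasts, where 0.298% of 17117 were. Both counts rest on the contrast by which the genes were chosen, so nothing is read from them. The Septin9-deficient samples lay below both controls for 3 of 9 members in C2C12 cells (Alg2, Alg5 and Alg9) and for 4 of 9 in primary myoblasts (those and Alg12), where 12.7% and 14.8% of all genes did. The median log2 fold change of the 9 members was -0.08 in C2C12 cells and -0.11 in primary myoblasts, beside 0.00 and 0.01 over all genes. The 7 members other than Alg2 and Alg9 lay between -0.09 and 0.12 in C2C12 cells and between -0.24 and 0.15 in primary myoblasts, with standard errors of up to 0.14 and 0.18. Alg2 and all other genes ceased to be DEGs, in both cell types, when the experiment was not a block in the fit.

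**Figure D2:**
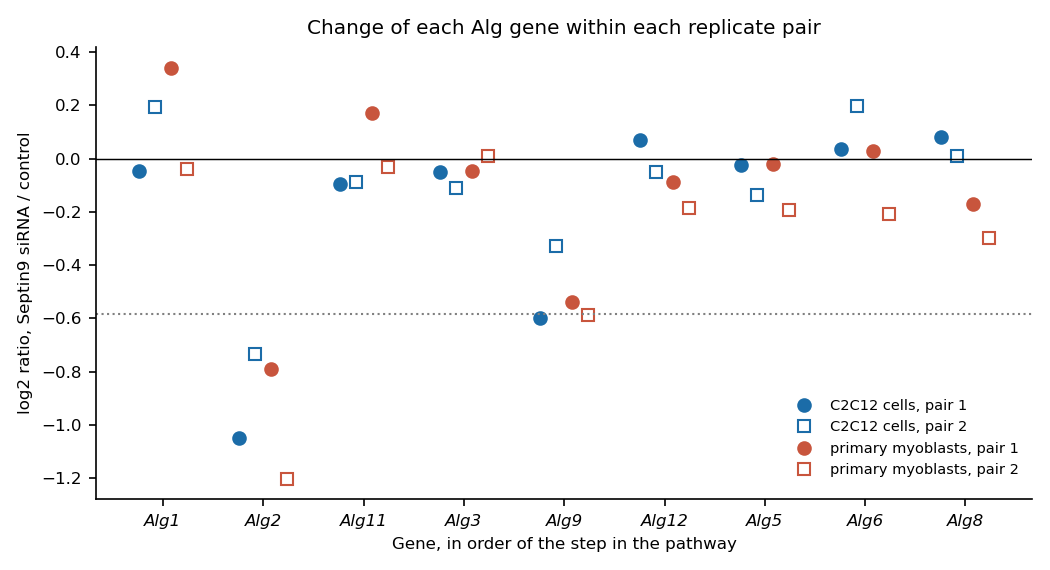
Log2 ratio of Septin9 siRNA to control (y axis) within each of the 4 replicate pairs for each Alg gene (x axis); the dotted line is the 1.5-fold DEG threshold. All 4 pairs of Alg2 lie between -1.20 and -0.73 and all 4 of Alg9 between -0.60 and -0.33, below every point of the other 7 genes.

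The change after the siRNA was then set side by side in the cell types. The difference of the log2 fold changes (primary myoblasts minus C2C12 cells) was -0.12 (standard error 0.18) for Alg2 and -0.11 (standard error 0.15) for Alg9, in each case smaller than its standard error. Over the 9 members it ran from -0.30 for Alg8 to 0.15 for Alg11. Across all genes edgeR's quasi-likelihood test called 0 of 17918 genes (0%) different at an adjusted p under 0.05, with 1469 at an unadjusted p under 0.05. DESeq2 gave 21 DEGs, a count that also needs 1.5-fold, where edgeR gave 0.

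Alg2 and Alg9 were next compared with genes that match the siRNA seed to the same degree. In C2C12 cells the 407 tested genes with the heptamer after the coding sequence, Septin9 left out, were centred on -0.12 (median, log2), and 6.14% of them were downregulated DEGs, against 0.526% of the 11021 genes without the hexamer. In primary myoblasts the 443 genes with the heptamer had a median of -0.12 and 4.51% downregulated DEGs, against 0.16% of 11867 genes without the hexamer. The classes were not matched for the length of the sequence searched, on which finding a match depends. Alg2 stood near the low end of its class, with 7 of the 407 genes below it in C2C12 cells and 4 of the 443 in primary myoblasts. The 947 genes with only the hexamer had a median of -0.03 in C2C12 cells and 1.37% downregulated DEGs. The 999 such genes of the primary myoblasts had a median of -0.04 and 0.40% downregulated DEGs. Alg9 had 38 and 14 of these genes below it, and Alg3, with the same 6 bases, had 347 and 556 below it. Alg2 and Alg9 were chosen by their lower counts after the siRNA, so their low places follow from that choice. The part of the seed match in the lower level of Alg2 or Alg9 was not tested, since all samples with low Septin9 received the same siRNA.

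**Figure D3:**
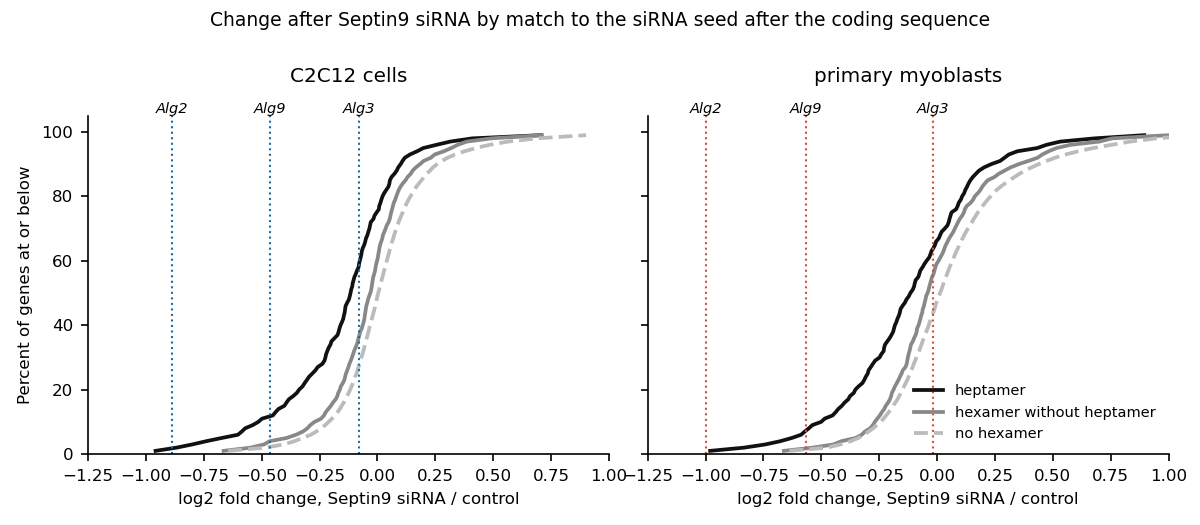
Cumulative share of genes (y axis, percent at or below a value) by log2 fold change after Septin9 siRNA (x axis), for genes with the heptamer, with the hexamer alone and with no hexamer after the coding sequence; dotted lines mark Alg2, Alg9 and Alg3. The heptamer curve lies to the left of the others (median -0.12 in both cell types), and Alg2 crosses it near its lower end.

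The genes with the pattern most like Alg2 over the 4 replicate pairs, among 9540 genes with at least 10 CPM on average in each cell type, were Get1 (5 entries were taken, and Get1 holds 2 of them), 2510039O18Rik, Otub1 and Cks1b. Their 4 pair ratios differed from those of Alg2 by a root mean square of 0.12 to 0.16 on the log2 scale. Get1, a part of the complex that inserts tail-anchored proteins into the membrane of the endoplasmic reticulum, had pair ratios of -1.18 and -0.92 in C2C12 cells, and primary myoblasts gave -0.87 and -1.14. For Alg9 the 5 nearest genes were Amotl2, Tmem167b, Eif4e3, Kpna6 and Rnf44, at a root mean square of 0.06 to 0.07. The heptamer stood after the coding sequence in 3 of the 4 distinct genes nearest Alg2 (not Otub1). It did so in 4 of the 5 nearest Alg9 (not Eif4e3), against 3.60% of the eligible genes with such sequence. That share covers all eligible genes, whereas the nearest genes were picked by pair ratios as low as those of Alg2 or Alg9. No share over genes that fall alike was taken, so nothing is read from the contrast. The likeness rests on 4 pairs that share the siRNA, so it is a description, and the part of the seed match was not tested.

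The other genes of the pathway were taken from lists of 77 genes. Of the 76 tested in C2C12 cells 1 was lower and 0 higher at an adjusted p under 0.05, beside 4.12% lower and 2.64% higher over all genes. Of the 77 tested in primary myoblasts 0 were lower and 2 higher, beside 1.04% and 3.95% over all genes. None of the 14 other genes of the lipid-linked oligosaccharide and dolichol passed in either cell type. These include Dpagt1, which starts the chain, and Alg13, which acts just before Alg1, and they ranged from -0.26 (Alg13) to 0.20 (Dpm3) in C2C12 cells and from -0.12 (Dolpp1) to 0.21 (Dpm1) in primary myoblasts. Their medians were -0.02 and 0.01. The 12 genes of the oligosaccharyltransferase, which uses the finished chain, had 0 calls in both, with a range of -0.22 to 0.08 and of -0.12 to 0.22. The 17 genes of trimming, folding and disposal in the endoplasmic reticulum also had 0 calls in both.

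A few genes before and after the chain did pass. Mgat5, a branching enzyme of the Golgi, was the 1 of 20 Golgi genes called in C2C12 cells, at 31.5 and 26.6 CPM in the controls against 19.9 and 21.9 CPM after the siRNA (log2 fold change -0.47, standard error 0.10, adjusted p = 0.00484, edgeR). This call was lost in 5 of 10 alternatives, among them DESeq2, no replicate block and either replicate left out, with adjusted p from 1.70e-05 to 1. In primary myoblasts its log2 fold change was -0.33 and none of the 20 passed. In the list of sugar nucleotide supply 0 of 13 genes passed in C2C12 cells and 2 of 14 in primary myoblasts. Gfpt2, an enzyme at the entry to UDP-N-acetylglucosamine synthesis, rose from 0.876 and 3.64 to 2.31 and 6.42 CPM (log2 fold change 1.02, standard error 0.26, adjusted p = 0.0264, edgeR), and its groups overlap between the experiments. Ugp2, which makes UDP-glucose, rose from 90.0 and 65.2 to 125 and 92.3 CPM (log2 fold change 0.49, standard error 0.11, adjusted p = 0.0115). The call of Gfpt2 was lost in 8 of 10 alternatives, among them either replicate left out (adjusted p = 0.131 and 0.149), and that of Ugp2 in 3 of 10, among them DESeq2 and library size alone. Over the alternatives the adjusted p ran from 0.000931 to 0.99998 for Gfpt2 and from 0.000287 to 0.99998 for Ugp2.

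Genes of the response to stress of the endoplasmic reticulum, which unglycosylated proteins can set off, were examined in the same way. In C2C12 cells 1 of 20 was lower, Herpud1, with 81.1 and 110 CPM in the controls against 63.6 and 90.0 CPM after the siRNA (log2 fold change -0.32, adjusted p = 0.0067, edgeR), beside 4.12% of all genes lower. Its call was lost in 5 of 10 alternatives, among them DESeq2 and either replicate left out, with adjusted p from 0.000478 to 1. In primary myoblasts 2 of 20 were higher, the sensor Atf6 (log2 fold change 0.48, adjusted p = 0.0469) and the co-chaperone Dnajb9 (0.45, adjusted p = 0.0278), beside 3.95% of all genes higher. The call of Atf6 was lost in 6 of 10 alternatives, among them DESeq2 and replicate 2 left out (adjusted p = 0.223), and that of Dnajb9 in 4 of 10, among them DESeq2 and RLE size factors. The adjusted p ran from 7.33e-09 to 0.99998 for Atf6 and from 0.000835 to 0.99998 for Dnajb9. Atf6 stood at 217 and 95.1 CPM in the controls and at 246 and 163 CPM after the siRNA, so that the experiments differed more than the siRNAs. The medians of the 20 genes were 0.03 and 0.15, beside 0.00 and 0.01 over all genes. Differentiation markers were called higher in both cell types, 8 of 12 in C2C12 cells and 10 of 12 in primary myoblasts, and their part was not tested.

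**Figure D4:**
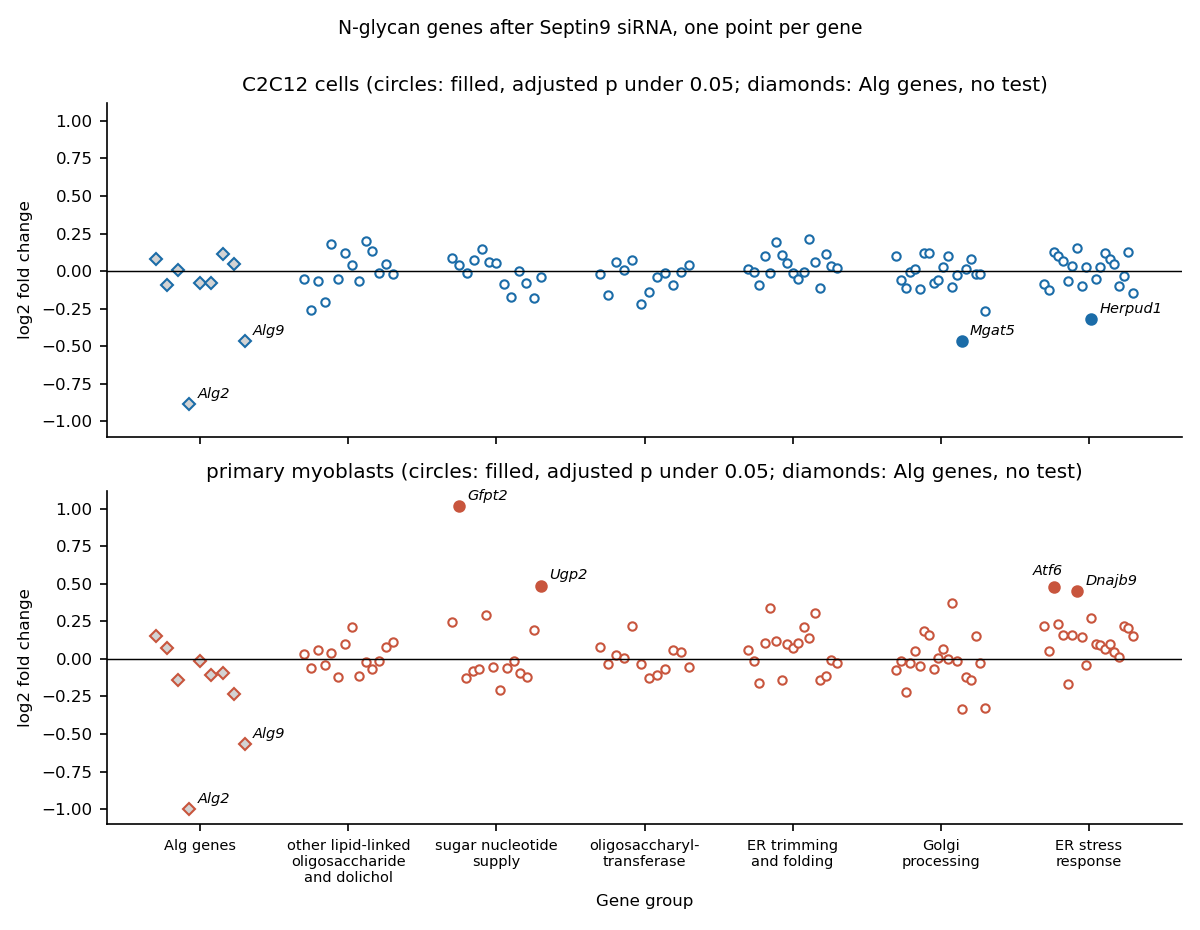
Log2 fold change after Septin9 siRNA (y axis) of every gene tested in the Alg group, the 5 lists of the pathway and the endoplasmic reticulum stress list (x axis); diamonds are the Alg genes, for which no test is shown, and circles are the genes of the lists, filled where the adjusted p is under 0.05. In both panels the points furthest below 0 are Alg2 (-0.89 and -1.0) and, of the myoblast points, Alg9 (-0.57) follows.

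The levels of the 9 genes were compared in the control samples per length, as CPM per kilobase of exon (RPKM), since CPM does not compare genes of different length. The exon lengths are those of GENCODE M21, whereas the genes were counted under RefSeq symbols of GRCm38.p6, so a length may differ from the exons counted. Alg5 was the highest of the members in both cell types, at 22.2 ± 0.80 RPKM (SD, n = 2) in C2C12 cells and 26.6 ± 0.64 in primary myoblasts. In C2C12 cells Alg1 (11.7 ± 0.80 RPKM), Alg2 (10.7 ± 0.49) and Alg9 (10.4 ± 1.42) followed. Alg6 (7.99 ± 1.41), Alg3 (5.92 ± 1.32), Alg12 (5.82 ± 0.17), Alg8 (5.52 ± 1.25) and Alg11 (4.83 ± 0.61) made up the lower part of the order. In that order Alg2 and Alg9 overlapped, and each of Alg3, Alg12, Alg8 and Alg11 overlapped its neighbour, while the other neighbours did not.

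In primary myoblasts the order was Alg5, Alg8 (13.9 ± 2.22 RPKM), Alg1 (13.0 ± 0.43), Alg2 (11.1 ± 1.23), Alg3 (8.19 ± 0.60), Alg9 (7.76 ± 0.56), Alg11 (4.39 ± 0.20), Alg12 (3.68 ± 0.15) and Alg6 (2.84 ± 0.42). Here Alg8 overlapped Alg1 and Alg3 overlapped Alg9, and no other neighbours did. Among the 14862 genes with a length, Alg2 stood at percentile 59.9 in C2C12 cells and 61.8 in primary myoblasts, Alg5 at 78.5 and 81.5, and Alg6 at 52.5 and 31.5.

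**Figure D5:**
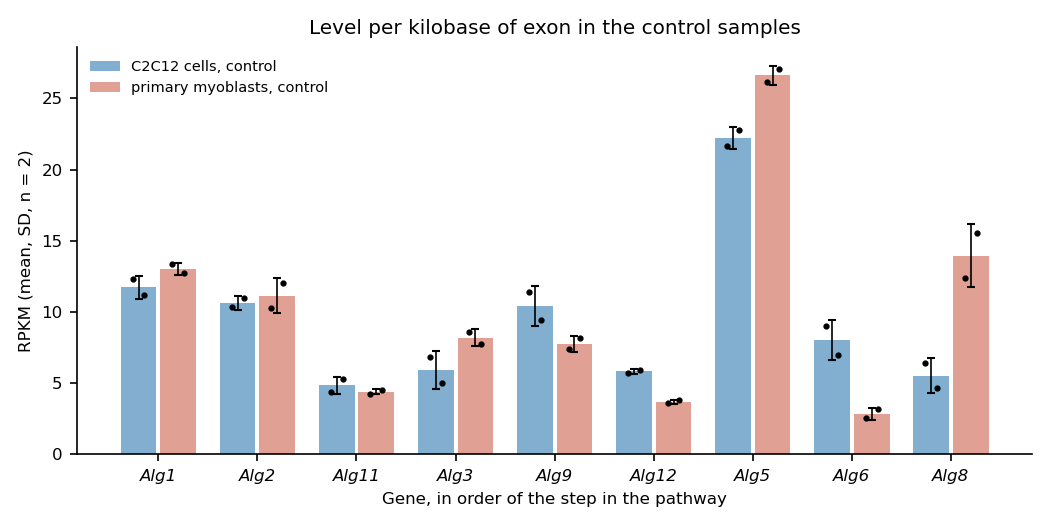
Level per exon length (y axis, RPKM) of each Alg gene (x axis) in control C2C12 cells (blue) and control primary myoblasts (red); bars are means, error bars the SD, points the 2 samples. Alg5 is highest in both (22.2 and 26.6 RPKM), Alg6 is higher in C2C12 cells (7.99 against 2.84) and Alg8 in primary myoblasts (13.9 against 5.52).

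Alg6 and Alg8, which add successive glucoses, differed in opposite directions between the control cells. Alg6 was higher in C2C12 cells, with 608 and 586 counts against 181 and 259 in primary myoblasts (log2 fold change 1.49, standard error 0.23, adjusted p = 0.0126, edgeR). Alg8 was lower in C2C12 cells, with 287 and 257 counts against 583 and 848 (log2 fold change -1.34, standard error 0.25, adjusted p = 0.018). These were 2 of 9 members past an adjusted p under 0.05, beside the 34.5% of all 17103 genes that were. Without either C2C12 control the calls were lost, with adjusted p of 0.0658 and 0.0654 for Alg6 and 0.0574 and 0.0985 for Alg8, although the direction held and the values stayed between 1.31 and 1.67 and between -1.57 and -1.11. The DEGs over all genes then dropped from 5699 to 1556 (without the first C2C12 control) or 512 (without the second). Alg12 was higher in C2C12 cells without passing (log2 fold change 0.66, standard error 0.20, adjusted p = 0.0601), and it passed with library size alone (adjusted p = 0.0456) and in a fit of all 8 samples (adjusted p = 0.0161). Alg9 stood at 0.42 (standard error 0.18, adjusted p = 0.124) and Alg2 at -0.06 (standard error 0.16, adjusted p = 0.777). Cell origin, differentiation and time after transfection cannot be told apart in this comparison.

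Other genes of the chain also differed between the controls. Dpagt1 (0.87, adjusted p = 0.0209, edgeR) and the dolichol synthase subunit Dhdds (0.61, adjusted p = 0.0318) were higher in C2C12 cells, and the dolichol kinase Dolk was lower (-0.82, adjusted p = 0.0445), all as log2 fold change. Of the 12 oligosaccharyltransferase genes 3 were higher and 0 lower, with Tusc3 furthest apart at 1.18 (adjusted p = 0.0181). With 1 control sample left out, the call of Dpagt1 was lost in 4 of 4 cases (adjusted p of 0.0608 to 0.0853), that of Dhdds in 4 of 4 (0.0739 to 0.118), that of Dolk in 3 of 4 (0.0332 to 0.170) and that of Tusc3 in 2 of 4 (0.00962 to 0.106). The calls of Dhdds and Dolk were also lost with a replicate block. The shares over all genes were 16.2% higher and 18.3% lower.

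The independent experiments were compared last, as replicate 2 against replicate 1 over both siRNAs. In C2C12 cells 3 of 9 members were lower in replicate 2 at an adjusted p under 0.05, where 18.3% of all genes were. These were Alg3 (log2 fold change -0.53, standard error 0.14, adjusted p = 0.00451, edgeR), Alg6 (-0.33, standard error 0.09, adjusted p = 0.00528) and Alg8 (-0.55, standard error 0.12, adjusted p = 0.00161). The 3 calls were lost with DESeq2 (adjusted p = 0.142, 0.174 and 0.0835) and when any 1 C2C12 sample was left out, where the highest adjusted p were 0.214, 0.606 and 0.141. Alg6 also missed the threshold in a fit of all 8 samples (adjusted p = 0.0817), and Alg11, at 0.21, passed with library size alone (adjusted p = 0.0317). All 12 differentiation markers were higher and all 14 cell division markers lower in the same replicate, and their part was not tested. In primary myoblasts 0 of 9 members passed, beside 24.5% of all genes called, and Alg1 passed when either control was left out (-0.50, adjusted p = 0.00343 without the first and 0.00276 without the second). All 12 differentiation markers were lower and the 4 fibroblast markers tested higher in replicate 2 of the primary myoblasts. Alg2 and Alg9 differed between the experiments by 0.19 and -0.20 in C2C12 cells (adjusted p = 0.128 and 0.0891) and by 0.04 and 0.13 in primary myoblasts (adjusted p = 0.863 and 0.527).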

How the data were processed

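RNA-seq of 8 mouse myoblast samples was analysed from the deposited tables. Per the submitters' processing notes the authors used STAR 2.7.2 (GRCm38.p6), featureCounts 2.0.1 and DESeq2 1.40.1, and they deposited raw read counts per gene without normalization. They also deposited, per cell type, a normalized signal from which ComBat-Seq had removed the experiment effect. Whole reads were recovered from 100% of its values (tolerance 0.01), and DESeq2 on these reads called 134 DEGs in the C2C12 line, with 331 in primary myoblasts. The main results rest on the raw counts.

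Broken lines of the raw counts (16) were left out, and no column was left unassigned (0). Groups and replicate numbers come from the labels. The replicate numbers were taken to stand for the independent experiments stated in the methods of the study. Neither the labels nor the methods say which samples share an experiment. Deviations of same-numbered samples correlated over genes (0.678 in C2C12 cells, 0.82 in primary myoblasts). Counts were filtered with filterByExpr, scaled by TMM and tested with the quasi-likelihood test of edgeR 4.0.16 (R 4.3.3) with Benjamini-Hochberg adjustment over all genes, with the replicate as a block after siRNA treatment. The standard error is the absolute log2 fold change divided by the square root of F. Pair ratios use log2 CPM with a prior count of 2, and RPKM uses GENCODE M21 exon lengths, which are not from the annotation counted on. Seed matches were searched in at least 20 bases after the coding sequence of GENCODE M21, with the guide strand complementary to the siRNA sequence of the study. Strand handling of the counting is not given in the sources used here. The precision rests on 2 samples per group.

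The members and the gene lists were chosen with earlier results of these data known. Named genes are the 9 members, Septin9, up to 4 called genes per list and comparison, the 5 genes most like Alg2 and Alg9, and cell type markers, and 1 item under this rule is not reported here. Alternatives were RLE size factors, library size alone, other filters (none, or at least 10 counts in every sample), DESeq2 1.42.0, no block, all 8 samples, the batch-corrected values, and each replicate left out. The fits were also run on simulated counts with planted changes and the same dispersion for every gene. That run says nothing of their precision on the real samples. Figures were drawn with matplotlib 3.10.9 (Python 3.11.15).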

Additional observations from a re-analysis of the deposited data

Results flagged for a closer look

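Alg8 is listed because the signs of its pair ratios differed between the cell types. In C2C12 cells its log2 fold change of 0.05 was smaller than its standard error of 0.12, so no rise is shown there. Its log2 ratios were 0.08 and 0.01 in the C2C12 pairs and -0.17 and -0.30 in the primary myoblast pairs, and the difference of the effect (primary myoblasts minus C2C12 cells) was -0.30. This difference was not tested, because the gene was chosen with these contrasts. Herpud1, of the stress response of the endoplasmic reticulum, had pair ratios of -0.35 and -0.29 in C2C12 cells, against 0.07 and 0.48 for primary myoblasts, and its difference of 0.58 did not pass the interaction test of edgeR (adjusted p = 0.302). Ugp2, which makes UDP-glucose, had pair ratios of -0.01 and -0.07 in C2C12 cells, against 0.47 and 0.50 for primary myoblasts, and its difference of 0.52 did not pass either (adjusted p = 0.29).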

How the results depend on the processing

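The log2 fold change after Septin9 siRNA kept its sign in all 11 alternatives for Alg2 (-1.03 to -0.75 in C2C12 cells, -1.23 to -0.78 in primary myoblasts) and for Alg9 (-0.58 to -0.34 and -0.61 to -0.52). The number of DEGs depended more on the settings. In C2C12 cells 248 became 99 with DESeq2, 83 with all 8 samples in one fit, 134 with DESeq2 on the recovered reads (added after the data were seen), 0 with no replicate block and 98 to 181 without 1 replicate. Library size alone gave 195 higher and 116 lower, in place of 131 and 117. In primary myoblasts 542 (491 higher, 51 lower) became 260 with RLE size factors (225 and 35), 206 with library size alone (165 and 41), 230 with DESeq2, 331 with the recovered reads, 0 with no replicate block and 358 to 926 without 1 replicate. The difference between cell types went from 0 to 199 with no filter, 21 with DESeq2 and 51 to 470 without 1 replicate. Between the controls 5699 DEGs (2702 higher, 2997 lower) became 512 to 4760 without 1 sample, and library size alone gave 2996 and 2738. The replicate contrast gave 1788 DEGs in C2C12 cells, 1138 with DESeq2 and 1111 to 1717 without 1 sample, and 2714 in primary myoblasts, 1674 with DESeq2 and 2499 to 2554 without 1 sample. With 1 sample left in a group, its spread is taken from the other groups. The causes were not tested, other than that fewer samples enter.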
